A study of Mus musculus with 8 samples.

Results

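Agps knockout and parental cells of the PyMT-1099 line were compared without treatment, in 2 libraries of each, which are 4 of the 8 libraries in the series. The libraries were taken by their labels, and all 14641 genes that passed a count filter enter the comparison. PyMT-1099 is a breast cancer cell line from a mouse mammary tumour driven by the polyoma middle T oncogene. The other 4 libraries hold the same lines treated for 10 days with TGF-β (2 ng/ml) and enter in 2 ways: they share the estimate of spread behind the p-values, and they show whether a difference between the lines was seen again. Both groups compared grew in high glucose DMEM with serum and no TGF-β, and they differ by the label of the line, wild-type parental or Agps knockout. The knockout libraries carry a single line name. How the line was made, whether it is 1 clone and whether the libraries are separate cultures is not given in the sources used here, so p-values reflect only how far replicate libraries spread, which may be technical. What the loss of Agps does therefore cannot be told apart from what else sets this knockout line off from its parent.

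Agps codes for alkylglycerone phosphate synthase, which sits in peroxisomes and exchanges the acyl chain of acyl-dihydroxyacetone phosphate for a fatty alcohol and so makes the ether bond of ether lipids. Gnpat makes the acyl precursor, Far1 supplies the fatty alcohol, and plasmalogens, ether lipids with a vinyl bond, are finished in the endoplasmic reticulum. Ether lipids are membrane constituents that have been studied in cancer cells for their part in signalling, membrane order and lipid peroxidation.

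The untreated libraries held 17007268 to 21311831 counts and 21707 to 22448 detected genes, and 2.37% to 3.46% of counts came from mitochondrial DNA. On the 500 genes that varied most among them, the first principal component held 85.7% of the variance and parted the lines, and the second held 9.94% and parted replicate 1 from replicate 2 in both lines. The epithelial label was checked against markers: keratins 8, 18 and 19 and Cdh1 were abundant in all 4 libraries, whereas Epcam had 0 counts in all 8 libraries of the series, and Esr1, Pgr and Foxa1 had 0 counts in the 4 untreated libraries. Of 22 immune markers 9 were at 0, and the summed level of the list was 34.6 to 36.8 CPM (counts scaled to library size) in the 4 libraries. Of 12 fibroblast markers Col1a2, Col3a1, Dpt, Lum and Thy1 were at 0, and the sum was 3.53 and 4.10 CPM in parental against 2.03 and 2.27 CPM in knockout libraries.

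Agps itself was the check of the labels. Its level was 357 and 330 CPM in the parental libraries and 32.9 and 29.3 CPM in the knockout libraries, so the groups were far apart. The log2 fold change (knockout over parental, with its standard error, SE) was -3.47 ± 0.12 (adjusted p = 5.44e-08, edgeR). Agps lies on chromosome 2 at 75832177 to 75931350 (GRCm38), and none of the 10 tested genes nearest to it, 5 on each side, passed the test. The closest on either side were Ttc30b at -0.11 ± 0.17 and Nfe2l2, which encodes the NRF2 factor, at -0.01 ± 0.12.

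Of the 14641 genes 2000 (13.7%) differed between the lines at an adjusted p under 0.05 in edgeR's quasi-likelihood test, here called changed. Of these 691 (4.72% of genes tested) were higher and 1309 (8.94%) lower in the knockout line, and 657 changed at least 2-fold, 237 of them higher and 420 lower. In each of the 2000 both libraries of one line lay above both of the other, whereas of all genes tested 24.4% had both knockout libraries above and 26.3% had both below. In simulated counts of this size the test recovered 50% of genes changed 1.5-fold, 82% of those changed 2-fold and 98% of those changed 4-fold. Small changes are thus often missed. The simulation changed only 200 of 13585 genes, had no treatment effect and drew libraries independently, so recovery in the real data can differ. With only the 4 untreated libraries in the fit 1111 genes were called, 340 of them higher. When genes of the chromosome stretches described next were left out and the rest fitted again, 1052 genes were called, 479 of them higher.

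**Figure D1:**
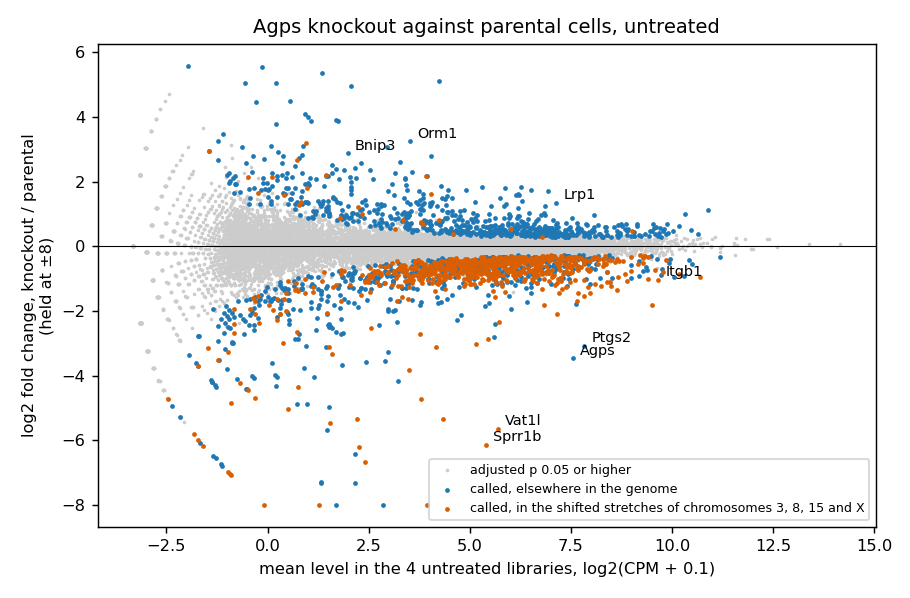
Log2 fold change of knockout over parental cells (vertical, held at ±8) against the mean level in the 4 untreated libraries (horizontal, log2 of CPM plus 0.1), 1 dot per tested gene. Coloured dots are the 2000 called genes, orange where they lie in the shifted stretches of chromosomes 3, 8, 15 and X, and Agps is labelled at -3.47.

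The greater part of the genes that fell (55.6%) lay together on a few chromosome stretches, which is the broadest pattern in the comparison. To see it, tested genes were put in runs of 50 neighbours along each chromosome and the median log2 fold change of each run was taken, 283 runs in all. Chromosomes 3 and 8 were lower over their whole length, chromosome 15 over 7 runs and chromosome X over its first 3 runs. These stretches hold 2074 genes, 14.2% of those tested, and 728 of the 1309 falls but 25 of the 691 rises. Outside them the median was 0.03, and 666 genes (5.30% of 12567) rose and 581 (4.62%) fell. All but 3 of the 242 runs outside had a median within 0.2 of 0. Genes of a stretch are neighbours and not replicates, so no p is given for it.

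On chromosome 3 the median over 764 genes was -0.28, and 190 genes fell while 6 rose. Chromosome 8 had 2 levels. Its first 10 runs, from 3.1 to 91.1 Mb, had a median of -0.35 with 172 of 500 genes lower, and its last 6 runs, from 90.9 to 129.3 Mb, had a median of -0.80, a ratio of 0.574, with 206 of 310 genes (66.5%) lower. On chromosome X the runs from 5.7 to 59.6 Mb had a median of -0.67 with 93 of 150 genes (62.0%) lower, and the rest of the chromosome had 0.08 with 9 of 322 lower. The 7 runs of chromosome 15, from 22.7 to 85.8 Mb, had a median of -0.24 with 67 of 350 lower, and the genes distal to them had 0.02. In each of the 4 pairings of a knockout with a parental library the medians kept this sign, from -0.26 to -0.23 on chromosome 3 and from -0.79 to -0.68 on distal chromosome 8. DNA copy number was not measured, and its part in these values was not tested.

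The first run of chromosome 5, from 3.2 to 12.6 Mb, stood out the other way. Its median was 0.42, 22 of its 50 genes rose and 0 fell, the highest of any run. It holds Cdk6, the G1 kinase, Fzd1, a Wnt receptor, Cldn12, a tight junction protein, Crot, the peroxisomal carnitine octanoyltransferase, and the metalloreductase Steap4, all of which rose. Cdk6 lost its call without knockout replicate 1 (adjusted p = 0.0963) and parental replicate 2 (0.0537, edgeR), and Crot without knockout replicate 2 (0.1002) and parental replicate 1 (0.101).

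With TGF-β the same runs were compared in the 4 other libraries. The median was -0.30 on chromosome 3, -0.35 and -0.69 on the proximal and distal parts of chromosome 8 and -0.67 on proximal chromosome X, close to the untreated values. The 7 lower runs of chromosome 15 together had -0.24 untreated and -0.08 with TGF-β. They were split at 75 Mb by hand and not by a rule. The first 3 had -0.22 untreated and -0.18 with TGF-β. The last 4, from 75 to 85.8 Mb, had -0.26 untreated and 0.00 with TGF-β. The chromosome 5 run had 0.13 with TGF-β, where 8 of its genes rose. These changes of a run with treatment were not tested.

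**Figure D2:**
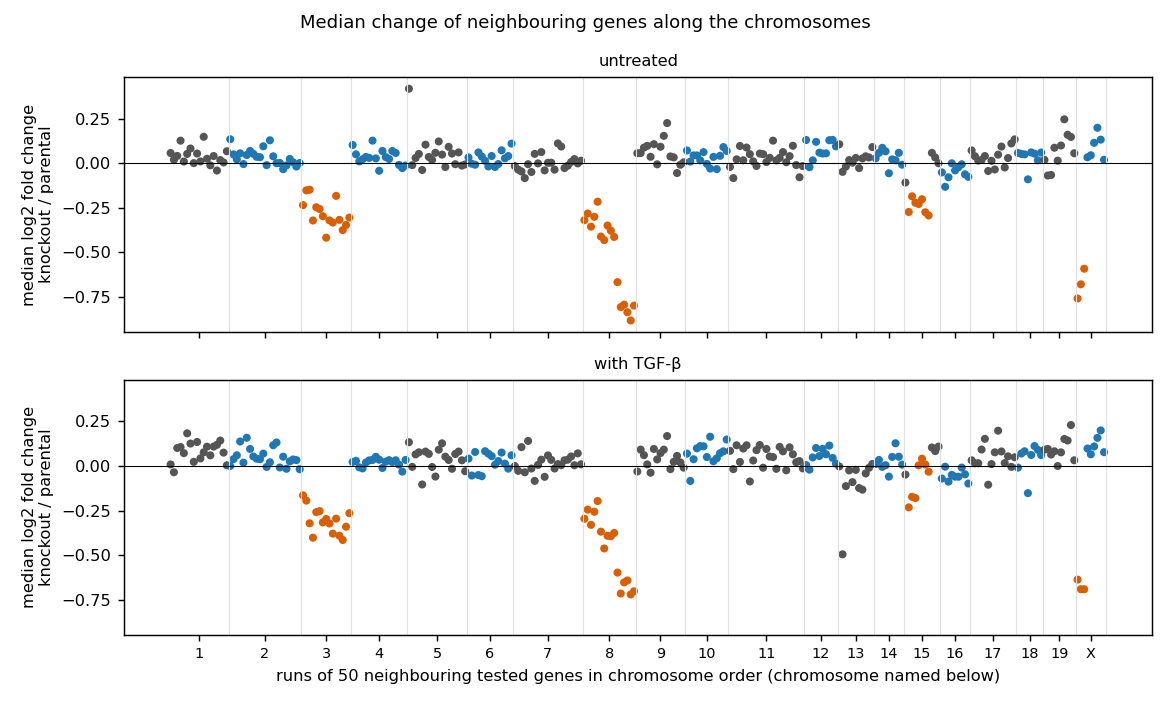
Median log2 fold change of knockout over parental cells (vertical) in 283 runs of 50 neighbouring tested genes, in chromosome order (horizontal), untreated above and with TGF-β below. Orange dots are the shifted stretches, which reach -0.80 on distal chromosome 8 and -0.67 on proximal chromosome X untreated, and the single high dot at the start of chromosome 5 is 0.42 untreated.

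Many abundant genes with known roles in epithelial cells lie in these stretches, and a reader of pathway lists meets them there. Itgb1, the beta subunit shared by many integrins, lies on distal chromosome 8 and had 1078 and 1109 CPM in parental against 513 and 551 CPM in knockout libraries (log2 -1.04 ± 0.09, adjusted p = 3.79e-05, edgeR). Cdh1, which encodes E-cadherin, also lies on chromosome 8 and had 582.1 and 701.6 CPM in parental against 287 and 317 CPM in knockout libraries (log2 -1.09 ± 0.10, adjusted p = 5.92e-05). Both groups were apart for both genes, and both fell again with TGF-β, by 1.39 and 1.35 on the log2 scale. On chromosome 3 Ccn1, a matricellular protein, fell from 2131 and 2209.5 CPM to 1014 and 1247 CPM, and the chaperone Hspa4l from 1109 and 1141 CPM to 569 and 713 CPM. On chromosome 8 Tpm4, a tropomyosin, fell by 0.52, Col4a1, a basement membrane collagen, by 0.82, and the amino acid transporter Slc7a5 by 1.53, from 299 and 378 CPM to 130 and 105 CPM.

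The largest falls in expression went far beyond the median of any stretch. Sprr1b, a cornified envelope protein on chromosome 3, had 106 and 59.98 CPM in parental and 1.01 and 1.30 CPM in knockout libraries (log2 -6.15 ± 0.29, adjusted p = 6.19e-07, edgeR). Vat1l, on chromosome 8, had 95.7 and 108 CPM against 1.497 and 2.55 CPM (log2 -5.64 ± 0.20). Il13ra1, a receptor chain for interleukin 13 on chromosome X, had 24.2 and 28.5 CPM against 1.01 and 0.974 CPM (log2 -4.72 ± 0.24). In these 3 both parental libraries were far above both knockout libraries. Outside the stretches Tfpi, an inhibitor of the tissue factor pathway on chromosome 2, fell from 13.9 and 13.4 CPM to 0.966 and 1.35 CPM (log2 -3.55 ± 0.22). Also among the 12 largest falls, ranked inside and outside the stretches alike, were Clca3b at -3.10, Sprr1a at -3.83 and Gm42047 at -5.36. Gm42047 shares 64.8% of its 50-base sequences with other genes, so its counts are uncertain. Sprr1a moved from -3.14 without parental replicate 1 to -4.56 without knockout replicate 1.

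Some genes went from a clear level to 0 or almost 0 counts, and their ratios come from summed counts with TMM-scaled library sizes. Enpp5, on chromosome 17, had 511 counts in the parental libraries and 0 in the knockout libraries. With the 0 held at a floor of 3 counts over the 2 libraries, it was 200-fold lower. Folds at this floor take the parental count as exact, so they are not lower limits. Scara3, a scavenger receptor family member, had 227 counts against 0, 88.7-fold lower at the floor. Tet2, the enzyme that oxidises 5-methylcytosine in DNA, lies on chromosome 3. It had 86 and 80 counts against 0 and 0, 64.9-fold lower at the floor. Rhox2h had 60 counts against 0, 23.4-fold lower at the floor, but shares 49.8% of its 50-base sequences with other genes. Fgf13 had 1110 counts against 1, a ratio of 1301 (95% counting interval 233 to 51445), and lies at the end of the proximal X stretch. Serinc5 had 311 counts against 2, a ratio of 182 (50.04 to 1512). Pcdh10, a protocadherin, had 92 counts against 3, a ratio of 36.0 (11.9 to 178). Postn (periostin) had 31 counts against 1, a ratio of 36.3 (6.06 to 1481), and Cd93 45 against 3, a ratio of 17.6 (5.65 to 88.5). The test of Postn was lost without parental replicate 1 (adjusted p = 0.144), without knockout replicate 1 (0.1196) and without knockout replicate 2 (0.0689). These intervals cover counting error only.

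The largest rises were spread over many chromosomes. Orm1, an acute phase protein, had 2.00 and 2.40 CPM in parental and 18.4 and 23.2 CPM in knockout libraries (log2 3.24 ± 0.20, adjusted p = 2.9e-06, edgeR). A1cf, a cofactor of apolipoprotein B mRNA editing, had 3.32 and 4.98 CPM against 28.9 and 28.6 CPM (log2 2.80 ± 0.18). Both were low in both parental libraries and several times higher in both knockout libraries. Xdh, which encodes xanthine dehydrogenase, rose by 2.36, St3gal5, the synthase of ganglioside GM3, by 2.26, the transcription cofactor Vgll3 by 2.18 and the phosphatase Ptp4a3 by 2.16, the last within the chromosome 15 stretch. Sgsm1 rose by 2.61, Ankrd44 by 2.10, Prune2 by 2.57, Lamb1, a laminin chain, by 2.07 and Cyp21a1 by 1.92. Prune2 had 3.38 without parental replicate 2, Lamb1 had 1.40 without parental replicate 1 and 3.17 without parental replicate 2, and Cyp21a1 had 2.58 without parental replicate 1. Kng2 and Kng1, which encode kininogens and neighbour each other on chromosome 16, had 2 and 1 counts in parental and 87 and 48 counts in knockout libraries, ratios of 37.1 (9.97 to 311) and 40.9 (7.01 to 1650).

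**Figure D3:**
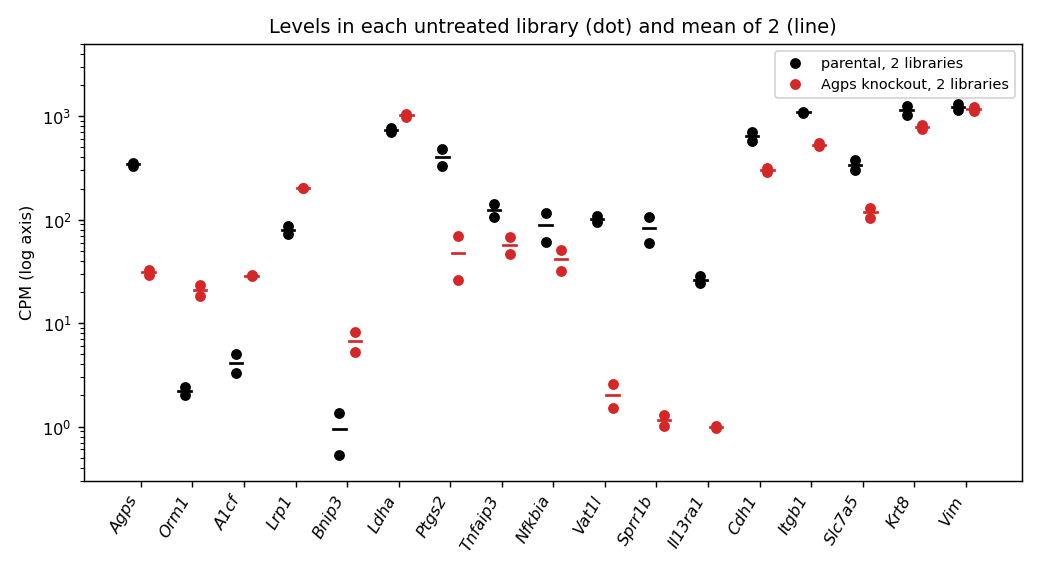
Level of 17 named genes in each untreated library (dots, CPM on a log axis), parental in black and knockout in red, with the mean of 2 libraries as a line. For Agps, Vat1l, Sprr1b and Il13ra1 the dots of the lines stand far apart, and for Vim the 4 libraries overlap between 1124 and 1321 CPM.

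Gene lists were then read by function, with each count set beside the background of 4.72% higher and 8.94% lower. For many lists the members outside the stretches are given apart, where 5.30% of all genes were higher and 4.62% lower. With 2 libraries a line, many list counts move when 1 library is left out, as is said with the lists. The 39 lists held 946 tested genes. Among glycolysis and hypoxia genes 11 of 34 tested members rose, all of them outside the stretches, and 0 fell, with a median log2 fold change of 0.31 against 0.00 for all genes. P4ha2, a prolyl hydroxylase of collagen, had 35.1 and 33.7 CPM in parental and 77.8 and 93.3 CPM in knockout libraries (log2 1.31 ± 0.10, adjusted p = 1.63e-05, edgeR). Ldha, which reduces pyruvate to lactate, had 763 and 700 CPM against 986 and 1051 CPM (log2 0.48 ± 0.09, adjusted p = 0.00412). Tpi1 and Pgam1, glycolytic enzymes, rose by 0.69 and 0.70, and Pdk1, a kinase that inhibits pyruvate dehydrogenase, by 1.02. The groups were apart for each of these genes, with differences mostly under 2-fold.

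Bnip3, a mitophagy receptor, rose from 0.527 and 1.35 CPM to 5.31 and 8.21 CPM (log2 2.87 ± 0.35, and 3.67 without parental replicate 2), with 47.2% of its 50-base sequences shared with other genes. P4ha1, Bnip3l, Aldoa, Pfkl and Ero1l rose by 0.44 to 0.59, and each lost its call without parental replicate 1 (adjusted p from 0.0872 to 0.198) and without knockout replicate 2 (from 0.0809 to 0.214). Without parental replicate 1 the list had 6 members higher and 3 lower, and without knockout replicate 2 it had 7 higher and 2 lower. In the treated libraries 13 members rose and 2 fell.

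The promoters of the genes that rose in this list are shown because 6 of its 9 genes found in the RefSeq promoter table hold the letters ACGTG, the core of the hypoxia response element, on either strand. The windows searched run from 250 bases before to 50 after each annotated start, and 28.9% of 9950 tested genes in the table hold the core. It is short, overlaps the E-box CACGTG, which holds it on both strands, and was chosen after the expression values were known. The 250 bases before the start are given 5′ to 3′ on the gene's strand (RefSeq, GRCm38.p6) with matches in capitals: Bnip3 at chr7:138909507-138909756 on the minus strand, Ldha at chr7:46845554-46845803 on the plus strand and P4ha2 at chr11:54100674-54100923 on the plus strand.
Bnip3: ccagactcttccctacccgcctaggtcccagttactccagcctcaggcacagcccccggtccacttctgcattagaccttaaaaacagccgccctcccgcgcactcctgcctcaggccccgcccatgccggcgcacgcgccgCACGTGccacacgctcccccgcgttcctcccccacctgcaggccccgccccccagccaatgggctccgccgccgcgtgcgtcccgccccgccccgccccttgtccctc
Ldha: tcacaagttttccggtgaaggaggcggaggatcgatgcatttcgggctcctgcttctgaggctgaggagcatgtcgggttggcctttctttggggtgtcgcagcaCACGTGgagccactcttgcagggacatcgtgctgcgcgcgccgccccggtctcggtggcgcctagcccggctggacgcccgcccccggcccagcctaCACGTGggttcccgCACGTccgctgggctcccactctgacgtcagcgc
P4ha2: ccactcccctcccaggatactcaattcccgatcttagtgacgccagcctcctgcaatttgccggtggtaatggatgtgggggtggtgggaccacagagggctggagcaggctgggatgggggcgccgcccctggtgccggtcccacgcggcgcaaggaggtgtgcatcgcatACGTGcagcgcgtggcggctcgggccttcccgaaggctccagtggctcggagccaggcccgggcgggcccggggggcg
The other annotated start of Ldha has no match in its 250 bases and is not shown. The window of Ldha shows 2 palindromes and a further match nearest the start, Bnip3 1 palindrome 107 bases before the start, and P4ha2 a single match 78 bases before it. No binding was measured. The share among list members that were not called was not taken, so the core cannot be tied to the rises.

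Cytokines and chemokines moved the other way. Of 28 tested members 12 fell and 2 rose, with a median of -0.79, and outside the stretches 10 of 22 fell and 1 rose. Ccl2, which attracts monocytes, had 454 and 245 CPM in parental and 179 and 131 CPM in knockout libraries (log2 -1.18 ± 0.23, adjusted p = 0.00628, edgeR). Cxcl1, a neutrophil chemokine, had 264 and 182 CPM against 119 and 127 CPM (log2 -0.86 ± 0.18, adjusted p = 0.00868). Spp1, which encodes osteopontin, had 670 and 853 CPM against 391 and 417 CPM (log2 -0.91 ± 0.11, adjusted p = 0.000279). The groups were apart in all 3, and Ccl2 was much higher in parental replicate 1 than in replicate 2. Lif, a cytokine of the interleukin 6 family, fell by 0.94, Ccl20 by 0.92 and Il18 by 2.05. Cxcl10, an interferon-induced chemokine, is different, because its fall of 2.00 rests on parental replicate 1: it had 23.3 and 3.92 CPM against 3.72 and 3.16 CPM, and without that library the change was -0.20 (adjusted p = 0.773), and it also lost its call without knockout replicate 1 (0.0885) and replicate 2 (0.116). Tnfsf10 and Kitl were the 2 members called higher. Tnfsf10 lost its call without knockout replicate 1 (adjusted p = 0.279), parental replicate 1 (0.110) and parental replicate 2 (0.136), and Kitl without knockout replicate 2 (0.0645) and parental replicate 2 (0.0818). Without parental replicate 1 the list had 7 members lower, and without knockout replicate 1 it had 8, and 0 were higher without parental replicate 2 and 1 without any of the other 3 libraries.

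The NF-kB pathway, whose factors drive many cytokine genes, had 8 of 29 members lower and 1 higher, with a median of -0.29, and 6 of 25 lower outside the stretches. Tnfaip3, the deubiquitinase A20 that limits the pathway, had 143 and 106 CPM in parental and 46.1 and 67.7 CPM in knockout libraries (log2 -1.13 ± 0.17, adjusted p = 0.00113, edgeR). Il1rl1, the interleukin 33 receptor, had 87.5 and 49.8 CPM against 20.7 and 20.2 CPM (log2 -1.75 ± 0.22, adjusted p = 0.000349). Among the factors themselves Nfkb2 fell by 0.65 and Nfkb1, on chromosome 3, by 0.64, while Rela had -0.29 ± 0.12 (adjusted p = 0.158, and -0.48 with 0.0145 without parental replicate 2). The inhibitor genes Nfkbia and Nfkbiz fell by 1.09 and 1.53. Without parental replicate 1 Nfkbia had -0.56 (adjusted p = 0.103) and Nfkbiz -0.45 (0.455), and both also lost their calls without knockout replicate 1 (0.0771 and 0.118), as Nfkbiz did without knockout replicate 2 (0.0898). The toll-like receptor gene Tlr2, on chromosome 3, had 32 counts in parental and 0 in knockout libraries, 12.5-fold lower at the floor. The list had 5 members lower without parental replicate 1 and 12 without parental replicate 2, and it had 0 higher without parental replicate 1, parental replicate 2 or knockout replicate 1.

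A kappa B site, GGG followed by 2 bases of any kind and TTTCC, was searched on both strands and also chosen after the expression values were known. It was held by 3 of 6 matched genes that fell in the NF-kB list and 3 of 9 in the cytokine list, against 2.14% of all 9950 genes, 3.24% of the 958 matched genes that fell and 4.82% of the 415 that fell outside the stretches. Windows of those that anchor both lists are shown with matches in capitals, some of them on the other strand: Nfkbia at chr12:55492648-55492897 on the minus strand, Tnfaip3 at chr10:19015411-19015660 on the minus strand and Cxcl1 at chr5:90890995-90891244 on the plus strand.
Nfkbia: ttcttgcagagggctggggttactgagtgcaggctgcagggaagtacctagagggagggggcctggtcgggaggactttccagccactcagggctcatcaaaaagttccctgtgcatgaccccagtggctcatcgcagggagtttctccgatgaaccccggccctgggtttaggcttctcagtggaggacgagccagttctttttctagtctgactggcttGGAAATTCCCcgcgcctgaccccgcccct
Tnfaip3: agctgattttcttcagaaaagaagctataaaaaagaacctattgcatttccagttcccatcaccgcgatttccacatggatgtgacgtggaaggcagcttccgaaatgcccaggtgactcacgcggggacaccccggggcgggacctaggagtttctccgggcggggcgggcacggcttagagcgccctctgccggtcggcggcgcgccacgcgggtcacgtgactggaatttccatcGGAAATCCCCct
Cxcl1: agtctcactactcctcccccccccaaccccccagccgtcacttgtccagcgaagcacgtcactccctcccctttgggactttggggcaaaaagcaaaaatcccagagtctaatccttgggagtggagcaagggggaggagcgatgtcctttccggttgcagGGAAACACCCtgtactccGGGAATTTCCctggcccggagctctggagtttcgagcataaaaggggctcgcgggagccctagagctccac
The other annotated start of Tnfaip3 has no match in its 250 bases and is not shown. The match lies 29 bases before the start in Nfkbia and 12 in the Tnfaip3 window, and Cxcl1 has 2 matches, 89 and 71 bases before it. These letters describe the windows and show no binding. The lists were drawn by function, and the share among their members that were not called was not taken. The shares given therefore cannot tie the site to the falls.

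Ptgs2, the inducible cyclooxygenase of prostaglandin synthesis on chromosome 1, was among the 12 largest falls. It had 328 and 484 CPM in parental and 26.1 and 70.0 CPM in knockout libraries (log2 -3.08 ± 0.35, adjusted p = 0.000184, edgeR), and -3.96 without knockout replicate 2. The knockout libraries differed from each other and still both lay far below the parental ones. With TGF-β the line difference was -0.07. Of the retinoid and prostaglandin list 4 of 18 members fell and 0 rose, the others being Ptgs1, Rdh10 and Aldh1a7. Rdh10, a retinol dehydrogenase, fell by 1.31, from 158 and 80.6 CPM to 48.1 and 48.3 CPM. Ptgs1 fell by 0.51 and lost its call without parental replicate 2 (adjusted p = 0.197) and knockout replicate 1 (0.187), and Aldh1a7 fell by 0.91 and lost its call without knockout replicate 1 (0.0604).

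In the stress lists falls outnumbered rises, in part through the stretches. Of 42 unfolded protein and ATF4 genes 11 fell and 2 rose (median -0.18), and outside the stretches 6 of 35 fell and 2 rose. Chac1, which degrades glutathione, had 114 and 155 CPM in parental and 48.0 and 51.2 CPM in knockout libraries (log2 -1.44 ± 0.22, adjusted p = 0.00117, edgeR). Nupr1, a stress-induced chromatin protein, fell by 1.14 and Ddit4, an inhibitor of mTORC1, by 1.12, from 83.1 and 82.7 CPM to 28.9 and 47.5 CPM. Fgf21, a stress hormone, fell by 2.66 and had -1.96 without parental replicate 2. All these lay apart between the lines. Herpud1, Gdf15 and Slc7a5, which fell by 1.07, 0.99 and 1.53, lie on chromosome 8, and Phgdh, the first enzyme of serine synthesis, which fell by 0.81, on chromosome 3. Atf4 itself had -0.40 (adjusted p = 0.0852, and -0.63 with 0.00305 without parental replicate 1). With 1 untreated library left out the number of members lower moved up or down with the library, and so did the number higher.

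Of 40 NRF2 and glutathione genes 11 fell and 3 rose (median -0.21), and 5 of the 30 outside the stretches fell. Nqo1, a quinone reductase on chromosome 8, had 37.2 and 88.7 CPM in parental and 3.77 and 11.7 CPM in knockout libraries (log2 -3.01 ± 0.46, adjusted p = 0.00121, edgeR). The replicates of each line were far apart, and the value ran from -2.26 without parental replicate 2 and -2.42 without knockout replicate 1 to -4.06 without knockout replicate 2. Gsr, glutathione reductase on chromosome 8, had 917 and 994 CPM against 548 and 592 CPM (log2 -0.75 ± 0.09). Outside the stretches Me1, the malic enzyme, fell by 0.99 and Gstp1, a glutathione transferase, by 1.65, with 28.3% and 33.7% of their 50-base sequences shared with other genes. Cat, which encodes catalase, rose by 0.44. The list had 7 members lower without parental replicate 2 or without knockout replicate 1. It had 6 higher without parental replicate 2, 5 without knockout replicate 1 and 1 without parental replicate 1 or knockout replicate 2.

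Few genes of ether lipid synthesis other than Agps were called. Of 28 tested, Agps included, 4 fell and 1 rose, with a median of -0.03. Gnpat, the enzyme before Agps, had 79.7 and 84.5 CPM in parental and 50.3 and 53.6 CPM in knockout libraries (log2 -0.66 ± 0.10, adjusted p = 0.000893, edgeR), and it lies on distal chromosome 8, where the median was -0.80. Far1, which makes the fatty alcohols, had 213 and 195 CPM against 188 and 195 CPM (log2 -0.09 ± 0.08, adjusted p = 0.546). Pex7, the import receptor for Agps, had 14.5 and 20.1 CPM against 17.6 and 21.6 CPM (log2 0.18 ± 0.16, adjusted p = 0.550). The libraries of the lines overlapped in Pex7 and touched in Far1. Tmem189, the plasmalogen desaturase, had 0.28 (adjusted p = 0.151), and Agmo, which cleaves alkylglycerols, -0.35 (adjusted p = 0.379). Lpcat4, Pla2g6 and Gpam moved by -0.35, -0.41 and 0.38 and each lost its call without parental replicate 1 (adjusted p = 0.122, 0.0522 and 0.226) and without knockout replicate 1 (0.116, 0.274 and 0.0512). Pla2g6 also lost it without parental replicate 2 (0.173) and Gpam without knockout replicate 2 (0.141). The list had 2 members lower without parental replicate 1 or knockout replicate 1.

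Of 44 peroxisome genes 5 rose and 3 fell (median -0.09). Acox2, an oxidase of branched-chain and bile acid precursors, had 30.9 and 55.5 CPM in parental and 101 and 127 CPM in knockout libraries (log2 1.41 ± 0.21, adjusted p = 0.00123, edgeR). Phyh, which starts the alpha-oxidation of phytanic acid, rose by 1.00, and Cat by 0.44. Crot lies in the chromosome 5 run. The list had 3 members higher without parental replicate 1 or knockout replicate 2. Nudt12 fell by 1.13, from 21.4 and 21.97 CPM to 9.61 and 10.2 CPM, and the other falls, Lonp2 and Abcd3, lie in the stretches. Abcd3 lost its call without knockout replicate 1 (adjusted p = 0.147), knockout replicate 2 (0.0977) and parental replicate 2 (0.203). The lines were apart for Acox2, Phyh and Nudt12, and most peroxisome genes did not pass the test.

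Cholesterol synthesis had 9 of 36 members lower and 0 higher (median -0.20), 6 of the 9 in the stretches. Ebp, the sterol isomerase on proximal chromosome X, fell by 1.12, Mvd and Msmo1 on chromosome 8 by 1.24 and 0.81, and Sqle, squalene epoxidase on chromosome 15, by 0.49. Outside the stretches 3 of 29 fell, Hmgcs1, Mvk and Hsd17b7. Hmgcs1, an early enzyme of the pathway, had 657 and 952 CPM in parental and 452 and 567 CPM in knockout libraries (log2 -0.66 ± 0.16, adjusted p = 0.0161, edgeR), and lost its call without parental replicate 2 (0.0942) or knockout replicate 1 (0.0879). Mvk lost its call in each of the 4 cases (0.0910 to 0.175), and Hsd17b7 without knockout replicate 2 (0.0521) and parental replicate 2 (0.0525). The list had 13 members lower without parental replicate 1, 4 without parental replicate 2 and 5 without knockout replicate 1, and 1 higher without parental replicate 2.

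Of 39 fatty acid and glycerolipid genes 5 rose and 5 fell, with 2 higher without parental replicate 1 or knockout replicate 2 and 3 without knockout replicate 1. Cd36, a fatty acid transporter, rose from 3.53 and 4.39 CPM to 16.6 and 17.4 CPM (log2 2.10 ± 0.19, adjusted p = 4.92e-05, edgeR). Me1, which supplies NADPH, had 692 and 669 CPM in parental and 314 and 371 CPM in knockout libraries (adjusted p = 5.96e-05), and Fads2, a desaturase, fell by 0.38. Fasn, the fatty acid synthase, had 526 and 499 CPM against 601 and 624 CPM (log2 0.26 ± 0.08, adjusted p = 0.0588). Among sphingolipid genes 3 of 24 rose and 3 fell, and all 3 falls, Sgms2 and Cers2 among them, lie in the stretches. With 1 library left out 1 to 4 were higher, the 1 without parental replicate 1, and 0 to 2 lower, the 0 without knockout replicate 1 and 1 without parental replicate 2. Sgms2 lost its call without knockout replicate 1 (adjusted p = 0.0628) and parental replicate 2 (0.0608), and Cers2 also without knockout replicate 2 (0.193, 0.245 and 0.0525 in that order). St3gal5, whose product makes ganglioside GM3, was the largest rise, from 1.21 and 0.761 CPM to 4.93 and 4.69 CPM.

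Genes of iron handling and ferroptosis, a death by lipid peroxidation in which ether lipids have been studied, were mostly not called. Of 31 iron genes 4 rose and 1 fell, and 2 fell without parental replicate 1 or knockout replicate 2. Lrp1, an endocytic receptor that also takes up haem bound to haemopexin, had 73.2 and 86.4 CPM in parental and 202 and 203 CPM in knockout libraries (log2 1.34 ± 0.10, adjusted p = 7.68e-06, edgeR). Lcn2, which binds siderophores, rose by 0.84 and Steap4 by 1.31. Slc40a1, the iron exporter ferroportin, rose by 0.44 and lost its call without parental replicate 1 (adjusted p = 0.0922) and knockout replicate 2 (0.0772). Tfrc, the transferrin receptor, had 0.17 (adjusted p = 0.383) and Fth1, the ferritin heavy chain, 0.06 (0.773).

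Of 28 ferroptosis genes 6 fell and 1 rose, 3 of the falls in the stretches. The rises numbered 5 without parental replicate 2, 2 without knockout replicate 1 and 0 without parental replicate 1 or knockout replicate 2, and the falls 9 without parental replicate 1 and 4 without parental replicate 2 or knockout replicate 1. Gpx4, the peroxidase that protects against ferroptosis, had 38.0 and 46.7 CPM in parental and 44.4 and 44.2 CPM in knockout libraries (log2 0.07 ± 0.13, adjusted p = 0.819, edgeR), with 34.7% of its 50-base sequences shared with other genes. Acsl4, which loads polyunsaturated fatty acids, had 770 and 1144 CPM against 1058 and 1384 CPM (0.35 ± 0.17, adjusted p = 0.216, and 0.66 with 0.0103 without parental replicate 2). Slc7a11, the cystine transporter, had 39.4 and 131 CPM against 83.4 and 92.2 CPM (0.05 ± 0.37, adjusted p = 0.963). The parental libraries of Slc7a11 lay on both sides of the knockout ones, so it was called lower without parental replicate 1 (-0.58, adjusted p = 0.00966) and higher without parental replicate 2 (1.15, 0.000146). Both Dhodh and Hmox1, which fell by 1.04 and 0.81, lie on chromosome 8.

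Keratins and luminal markers had more falls than rises. Of 13 keratins 5 fell and 1 rose (median -0.47), none of them in a stretch, and 3 fell without parental replicate 1. Krt19 had 1822 and 1625 CPM in parental and 1260.2 and 1076 CPM in knockout libraries (log2 -0.56 ± 0.11, adjusted p = 0.00644, edgeR), and Krt7 117 and 123 CPM against 72.5 and 60.6 CPM (log2 -0.85 ± 0.11, adjusted p = 0.000380). Krt8 had 1249 and 1034.5 CPM against 832 and 760 CPM, and shares 29.7% of its 50-base sequences with other genes. In all 3 the lines were apart. Krt23 rose, from 5.32 and 11.7 CPM to 18.8 and 41.9 CPM, with 2.51 without parental replicate 2 and 1.15 without knockout replicate 2 beside 1.85. Of 20 luminal markers 7 were tested and 5 of them fell, 3 without parental replicate 1 or knockout replicate 1. The luminal list shares Krt8, Krt18 and Krt19 with the keratins, so the falls of the lists are not separate. Of 10 basal markers tested 3 fell and 0 rose (median -0.42), and the number of falls moved with 1 library left out. The summed luminal level, which holds these keratins, was 6117 and 5439 CPM in parental and 4449 and 4144 CPM in knockout libraries. The summed basal level was 334 and 365 against 267 and 302 CPM. In bulk RNA fewer cells of a type and less RNA per cell cannot be told apart.

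Of 32 junction genes 4 rose and 4 fell, 2 of them lower without knockout replicate 1 or replicate 2. Of the 28 junction genes outside the stretches 4 rose and 1 fell. Besides Cdh1, Cgn, which encodes cingulin, fell by 0.73 on chromosome 3. Cdh3 and Cldn4 went from 6 and 16 counts to 0, 2.34-fold and 6.25-fold lower at the floor. The calls of Cdh3 and Cldn4 rest on few counts, and both were lost without parental replicate 1 (adjusted p = 0.186 and 0.148), without knockout replicate 1 (0.149 and 0.0534) and without knockout replicate 2 (0.151 and 0.0538), and that of Cdh3 also without parental replicate 2 (0.0608). Ocln, which encodes occludin, rose by 0.76, Nectin1 by 0.94 and Cldn12 by 0.48. Esrp2, a splicing factor of epithelial isoforms on chromosome 8, fell by 0.89.

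Of 28 mesenchymal genes 4 rose and 3 fell, with a median of 0.02, and 2 rose without parental replicate 1 or knockout replicate 2. Of the 23 mesenchymal genes outside the stretches 4 rose and 1 fell. Vim, the intermediate filament vimentin, had 1321 and 1161 CPM in parental and 1239.7 and 1124 CPM in knockout libraries (log2 -0.07 ± 0.10, adjusted p = 0.718, edgeR), and the libraries overlapped. Fn1, fibronectin, had 0.31 (adjusted p = 0.0757, and 0.44 with 0.0168 without parental replicate 2) and Zeb1 0.12 (0.524). Mmp13, a collagenase, rose from 30.6 and 42.4 CPM to 79.3 and 142 CPM (log2 1.602 ± 0.24, adjusted p = 0.001005), and Tnc, tenascin C, rose by 0.83. Of the TGF-β pathway list 2 of 33 rose, the ligands Tgfb2 by 0.57 and Tgfb3 by 1.24, and 1 fell, with 4 lower without parental replicate 2 and 2 without parental replicate 1 or knockout replicate 2. Tgfb3 lost its call without parental replicate 2 (adjusted p = 0.0629).

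Collagens and matrix genes fell more often than they rose: of 48 tested 16 fell and 5 rose (median -0.19), and outside the stretches 10 of 41 fell and 5 rose. Without parental replicate 2 or knockout replicate 1 the list had 2 members higher, and 3 without parental replicate 1. Timp1, a metalloproteinase inhibitor on chromosome X, fell by 2.52, from 11.5 and 8.38 CPM to 1.84 and 1.62 CPM. Fbln2, fibulin 2, had 25.03 and 24.43 CPM in parental and 10.4 and 12.6 CPM in knockout libraries (log2 -1.11 ± 0.12, adjusted p = 0.000126, edgeR). Ltbp1, which holds latent TGF-β in the matrix, fell by 0.92. Ankrd1, a YAP and SRF target, had 1689.7 and 1612 CPM against 838 and 918 CPM (log2 -0.91 ± 0.10, adjusted p = 0.000192, edgeR). Of 26 contractile genes 6 fell and 0 rose, and of the 21 outside the stretches 4 fell and 0 rose. The contractile list had 3 members lower without parental replicate 1 or knockout replicate 1. Among 15 integrins 3 rose, Itga1, Itgav and Itgb3, and 3 fell, Itgb1, Itga3 and Itgb4. Without knockout replicate 2 or parental replicate 1 only Itga1 was called higher, as Itgb3 (adjusted p = 0.0822 and 0.0692) and Itgav (0.164 and 0.205) lost their calls. Itgb4 lost its call without knockout replicate 1 (0.1300), parental replicate 1 (0.0513) and parental replicate 2 (0.0674).

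S100 and lysosome genes show how far the stretches carry a list. Of 20 S100 proteins and annexins 8 fell and 0 rose (median -0.37, and 1 rose without parental replicate 2), and 7 of the 8 are S100 genes of the cluster on chromosome 3. S100a6 had 1572 and 1399.6 CPM in parental and 819 and 832 CPM in knockout libraries (log2 -0.85 ± 0.11, adjusted p = 0.000554, edgeR), and S100a4 29.7 and 16.9 CPM against 3.67 and 3.39 CPM (log2 -2.73 ± 0.27), though 51.7% of S100a4 overlaps another gene on the same strand. S100a16 fell by 1.39, S100a14 by 2.11, S100a13 by 0.92, S100a1 by 0.77 and S100a11 by 0.60. The 1 member elsewhere, Anxa1, had 837 and 722 CPM against 459 and 457 CPM. Of 32 lysosome genes 8 fell and 4 rose, but outside the stretches 1 of 23 fell, Ctsh, and the 4 rises, Galc, Hexa, Gusb and Lipa, are all outside. Hexa lost its call without knockout replicate 2 (adjusted p = 0.170), parental replicate 1 (0.0915) and parental replicate 2 (0.0516). Map1lc3b, the LC3B protein of autophagosomes on chromosome 8, fell from 90.4 and 80.7 CPM to 30.6 and 33.1 CPM. Both falls among 50 nuclear respiratory chain genes, Ndufa1 and Cox4i1, are in stretches.

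Cell cycle genes had more rises than falls. Of 41 tested 6 rose and 2 fell, and the falls, Cdt1 and Gins2, lie on chromosome 8. Mki67, the proliferation marker, had 837 and 821 CPM in parental and 1083 and 1122 CPM in knockout libraries (log2 0.41 ± 0.09, adjusted p = 0.0135, edgeR), with 0.0511 without knockout replicate 2. Cenpf rose by 0.59 and Kif11 by 0.39. In a separate list of G1 control and p53 target genes 3 of 29 rose and 2 fell. Of the 27 outside the stretches 3 rose and 2 fell, and the number of falls moved with 1 library left out. Ccnd1, cyclin D1, rose by 0.42, from 691 and 703 CPM to 935 and 933 CPM, while Ccnd3 fell by 0.59. Among growth factor genes 8 of 36 fell and 3 rose, with 4 lower without knockout replicate 1 and with 1 higher without parental replicate 1. Of the 27 growth factor genes outside the stretches 6 fell and 3 rose. Btc, the EGFR ligand betacellulin, rose from 8.96 and 11.1 CPM to 32.3 and 35.0 CPM (log2 1.75 ± 0.16, adjusted p = 3.70e-05, edgeR), and Efnb2, ephrin B2 on chromosome 8, fell by 1.14. Among Wnt and Notch genes 4 of 28 rose and 2 fell. Xist, the RNA of the inactive X chromosome, had 277 and 443 CPM against 577 and 574 CPM (log2 0.68 ± 0.17, adjusted p = 0.0221, and 0.37 with 0.0735 without parental replicate 1).

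**Figure D4:**
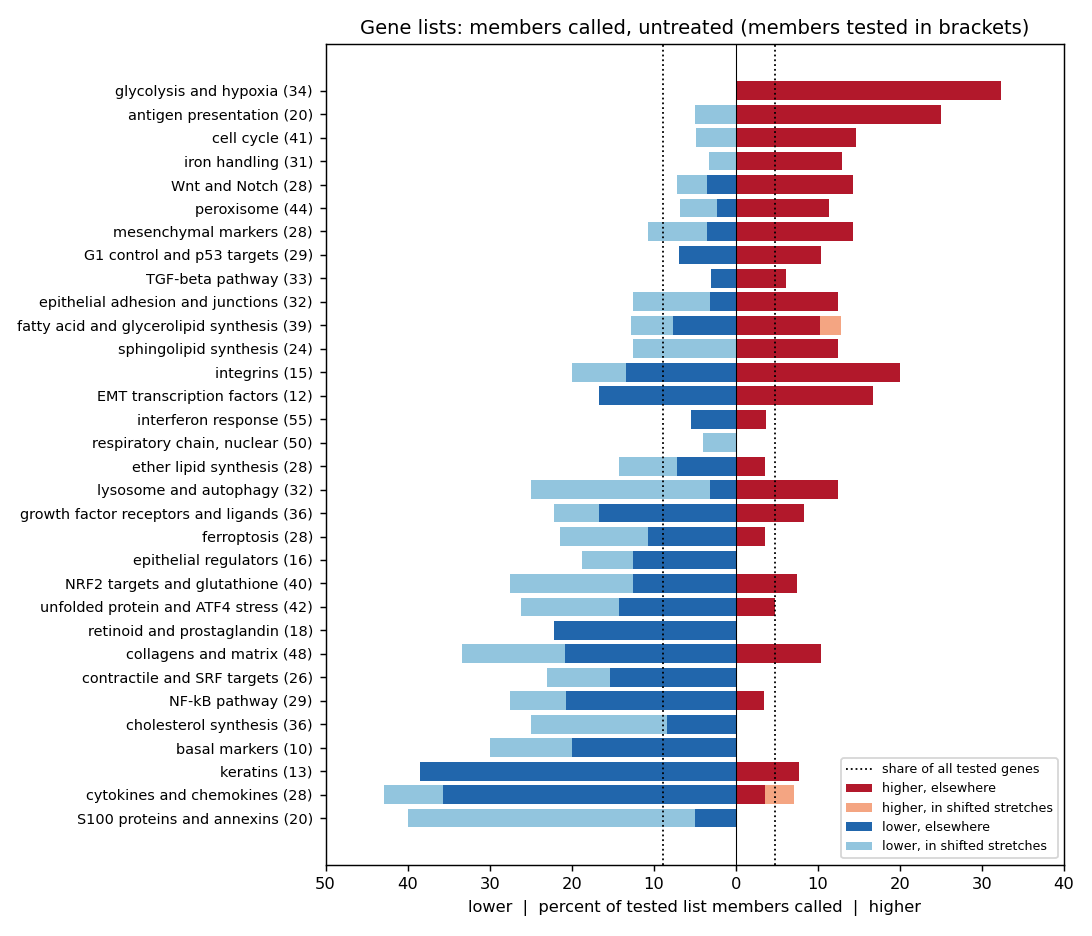
Percent of the tested members of each list called higher (right, red) or lower (left, blue) in the knockout line, with the members in the shifted stretches in pale colours and the number tested in brackets. Dotted lines mark 4.72% and 8.94%, the shares of all genes, and the S100 list stands out as mostly pale, the glycolysis list as wholly dark.

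Of the 2000 genes called without treatment, 1736 (86.8%) had the same sign with TGF-β, against 65.7% of all genes tested. The share was 95.2% for called genes in the stretches and 81.7% for those elsewhere. With TGF-β 2618 genes were called between the lines (17.9% of those tested, 6.82% higher and 11.1% lower). Of the 2000 genes 1025 (51.2%) were called in the same direction there, which is 39.2% of the 2618. In the stretches 68.3% of the 753 called genes were called again in the same direction, and elsewhere 41.0% of 1247. Called rises outside the stretches were called again in 36.6% of cases. Of the 2000 genes 44 were called in the opposite direction. The difference between the line effects was itself called for 352 genes of all tested (2.40%) and for 190 of the 2000. The 2000 were chosen by the untreated contrast, which enters that difference, so their share is not independent of the choice.

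Among the genes described above, Agps, Orm1, Il13ra1, Vat1l, Tfpi, Lrp1, P4ha2 and Itgb1 were called in the same direction with TGF-β. Tfpi had -3.72 there, Il13ra1 -4.56 and Lrp1 1.17. Ptgs2, Spp1 and Cd36 were not called with TGF-β, at -0.07, 0.20 and -0.08, and for Ptgs2 and Spp1 the difference passed its own test. Gcnt1, a glycosyltransferase of mucin type glycans, had 68.8 and 62.7 CPM in parental and 25.3 and 31.6 CPM in knockout libraries untreated (log2 -1.21), and was 1.15 higher with TGF-β. Timd2, a ferritin receptor, had the opposite pattern, 0.87 untreated and -2.18 with TGF-β. Ppbp, a chemokine, fell by 2.35 untreated and fell by 6.99 with TGF-β.

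**Figure D5:**
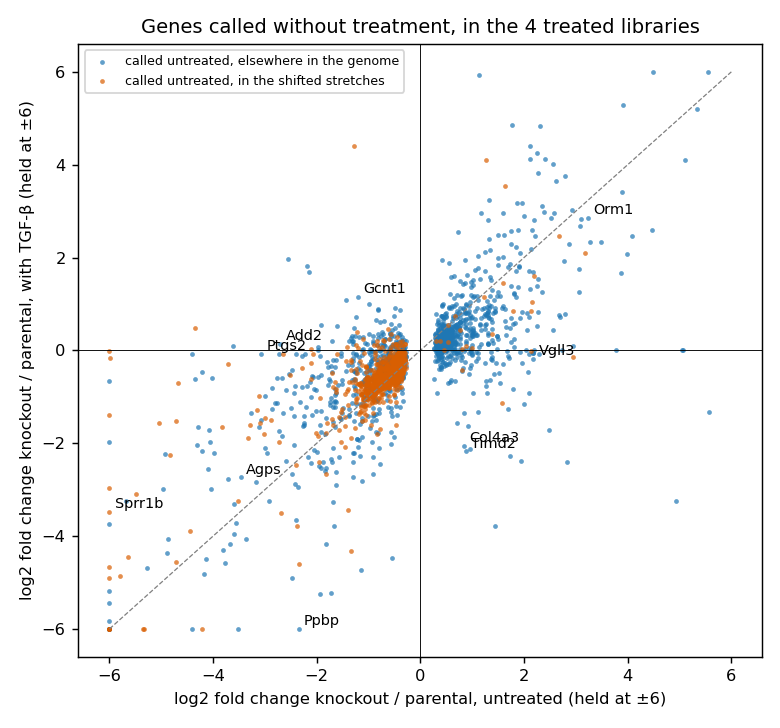
Log2 fold change of knockout over parental cells with TGF-β (vertical) against untreated (horizontal), both held at ±6, for the 2000 genes called untreated. Orange dots, in the shifted stretches, lie mostly near the dashed line of equal change, and Ptgs2, at -3.08 untreated and -0.07 with TGF-β, lies on the horizontal axis.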

How the data were processed

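Polyadenylated RNA of 8 libraries, 2 per group, was sequenced. Per the submitters' processing notes, the authors aligned reads with STAR 2.7.1a to GRCm38 (mm10) and counted them per gene with featureCounts 1.6.2. The deposited files hold whole raw counts for 55450 gene identifiers. The sources used here do not state the strandedness of counting or the annotation release, so overlapping genes on opposite strands cannot be told apart. Gene names and positions come from GENCODE M21. The deposited table of normalized values was not used.

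The filter was filterByExpr of edgeR, set to a minimum count of 10 in a group's libraries, and 14641 genes passed. Treated libraries count in this filter, so a gene low in all untreated libraries can pass. All 8 libraries were fitted once with 1 mean per group by the quasi-likelihood method of edgeR 4.0.16 under R 4.3.3, after TMM scaling, with 4 residual degrees of freedom. Thus the groups share 1 estimate of spread. P-values were adjusted by Benjamini-Hochberg over all genes of a contrast and called under 0.05. Log2 fold changes and SEs are those of the fit, and CPM are TMM-scaled. A gene with 0 counts in a line was held at a floor of 3 counts over its 2 libraries. Intervals of count ratios are exact binomial at 95% and cover counting error only. Folds at the floor leave out the counting error of the other line. The test was checked on simulated counts of 13585 genes.

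Chromosomes with a median log2 fold change at least 0.2 from 0 were taken whole as shifted. On the others, runs of 50 tested genes were called shifted where 3 or more neighbouring runs had medians of -0.15 or lower. Promoters are 250 bases before to 50 after RefSeq starts (GRCm38.p6). Alternatives were other scalings, DESeq2 1.42.0, limma voom 3.58.1, other filters and thresholds, a replicate block and leaving out each library.

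The comparison, the 39 gene lists and the members were chosen with earlier results of these data known. The text names Agps, the 12 largest rises and falls (average log2 CPM of at least 3, libraries apart), up to 5 called members of each list by adjusted p (average log2 CPM of at least 1), up to 10 genes near 0 in each line, up to 4 abundant genes of each shifted chromosome, 6 genes in each direction for the difference, and key genes of ether lipid, iron and epithelial biology. The average log2 CPM is that over all 8 libraries, treated ones included. Other list members and Epcam, Nfe2l2, Ttc30b, Rela and Atf4 were named after their values were seen, as were both promoter motifs. Some genes that this rule takes are not reported here.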

Additional observations from a re-analysis of the deposited data

Results flagged for a closer look

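The difference between the lines changed with treatment for several genes named above, by the test of that difference itself (edgeR, adjusted p under 0.05, 352 of 14641 genes, 2.40%). Each value below is the line difference with TGF-β minus that without it, on the log2 scale. With 2 libraries a group, genes of low counts can enter such a list through 1 library. Most of the named genes were called in the untreated comparison, whose value is subtracted here. An untreated difference overstated by spread pushes the value the other way, so these directions are partly set by the choice of genes.

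The knockout line lost ground with TGF-β in a first set. In secreted signals and surface receptors the value was -4.64 in Ppbp, -1.38 in Ccl20, -1.69 in Wnt4, -1.56 in Btc, -1.98 in Fzd1, -3.09 in Notch1, -0.68 in Egfr, -0.75 in Kitl and -0.69 in Tgfb2. Ppbp and Ccl20 are chemokines, Btc is a ligand of Egfr, and Notch1 turned from 0.96 untreated to -2.12 with TGF-β. In matrix, carrier and iron genes it was -2.89 in Col4a3, -1.21 in Tnc, -3.05 in Timd2 and -2.19 in Lcn2. In enzymes of lipid, retinoid or detoxification metabolism it was -3.93 in Ugt2b36, -1.75 in Aldh1a7, -1.44 in St3gal5 and -0.82 in Cers6. In the rest it was -3.31 in Slc13a2os, -2.98 in Fhl1, -2.36 in Vgll3, -2.14 in Prune2, -1.10 in Ptp4a3, -0.79 in Cdk6, -0.77 in Trp53inp1 and -0.65 in Krt7.

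The knockout line gained ground in a second set, in which all but Steap4 fell without treatment. With TGF-β the fall was smaller in Timp1, Ptgs2, Sprr1b, Clca3b, Cd93, Me1 and Agps, and the others were above 0. Among matrix genes and their inhibitors the value was 1.99 in Timp1, 2.05 in Col6a1, 1.14 in Fbln2, 1.12 in Spp1 and 1.08 in Ltbp1. Fbln2, Ltbp1 and Spp1 fell without treatment and had 0.03, 0.16 and 0.20 with TGF-β. In prostaglandin enzymes and epithelial genes it was 3.01 in Ptgs2, 1.25 in Ptgs1, 2.67 in Sprr1b, 1.05 in Muc1, 0.65 in Krt8, 0.60 in Itgb4 and 1.53 in Clca3b. In signals and regulators it was 1.69 in Areg, 1.02 in Wnt7b, 1.35 in Fosl1 and 1.40 in Ddit4. In the rest it was 3.99 in F13a1, 3.41 in Cd93, 2.84 in Add2, 2.36 in Gcnt1, 1.497 in Steap4, 0.66 in Me1 and 0.73 in Agps. Agps was -3.47 untreated and -2.74 with TGF-β, so the targeted gene stayed low in both. F13a1 had 1.05 and 0.469 CPM in parental and 0.0483 and 0.278 CPM in knockout libraries untreated, and its untreated call was lost without parental replicate 1 (-1.47, adjusted p = 0.264) and without knockout replicate 1 (-1.46, 0.154), while the change was -3.83 without knockout replicate 2. The untreated call was also lost with 1 library left out in Areg (without knockout replicate 1, parental replicate 1 and parental replicate 2, adjusted p = 0.146, 0.0556 and 0.121), Notch1 (knockout replicate 1 and parental replicate 2, 0.112 and 0.0608), Ugt2b36 (the same pair, 0.187 and 0.229), Egfr and Cers6 (parental replicate 1, 0.0569 and 0.0830), Col4a3 (knockout replicate 1, 0.0506) and Col6a1 (knockout replicate 2, 0.0506). The cause of these changes was not tested.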

How the results depend on the processing

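Without treatment 2000 genes were called. The count was 1035 at an adjusted p under 0.01, 421 in a test against a fold of 1.5, 1111 with only the 4 untreated libraries in the fit, and 1052 without genes of the shifted stretches, an alternative chosen after seeing the data. Leaving out 1 library at a time gave 1476 to 1813. With TGF-β 2618 were called, 1384 at 0.01, 587 against a fold of 1.5, and 1188 to 2922 with 1 library left out. The difference was called for 352 genes, 100 at 0.01, 70 against a fold of 1.5, 855 with no count filter, and 120 to 421 with 1 library left out. Leaving out a library leaves 1 in its group, which is then assumed to vary like the others.

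Replicate numbers were tried as a block. The samples share only a number, and deviations of same-numbered untreated libraries correlated at 0.568 between the lines. With the block 2659 genes were called untreated and 679 for the difference, and with the block in the 4 untreated libraries alone, added after seeing the data, 3742.

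The median of chromosome 3 (-0.28) was -0.24 with upper quartile scaling, -0.30 with a minimum count of 50, and -0.29 to -0.25 with 1 library left out. That of chromosome 8 (-0.46) was -0.43 and -0.50. Chromosome 15 as a whole (-0.17) had -0.14 with upper quartile scaling and -0.18 to -0.14 with 1 library left out. Chromosome X as a whole (-0.02) had 0.014 with upper quartile scaling and -0.046 to -0.0064 with 1 library left out. Of the named genes 231 were called untreated, and 90 of the named genes kept their direction and side of the threshold under every setting tried, and 1, Slc7a11, turned from 0.05 to a called -0.58 without parental replicate 1 and was 1.15 without parental replicate 2.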

Other observations

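Some genes of the antigen presentation list, which takes in both checkpoint ligand genes, were higher in the untreated knockout line. Of 20 tested members 5 rose, the ligand genes included, and 1 fell, against 4.72% and 8.94% of all genes. The median log2 fold change was 0.14. With TGF-β 0 members were higher and 4 lower. Pdcd1lg2, which encodes the checkpoint ligand PD-L2, had 2.42 and 2.11 CPM in parental and 9.18 and 10.2 CPM in knockout libraries (log2 2.09 ± 0.20, adjusted p = 5.79e-05, edgeR). Cd274, which encodes PD-L1 and lies beside it on chromosome 19, had 32.2 and 54.3 CPM against 74.8 and 91.7 CPM (log2 0.95 ± 0.22, adjusted p = 0.0131), and 0.0660 with only the untreated libraries in the fit. Both genes had the lines apart, and with TGF-β neither was called, at 0.72 and -0.38. H2-D1, a class I molecule, rose by 0.78, and Cd74, the invariant chain, by 1.81, from 0.369 and 0.761 CPM to 1.84 and 2.09 CPM. H2-D1 lost its call without parental replicate 1 (adjusted p = 0.0742), parental replicate 2 (0.0633) and knockout replicate 1 (0.125), and Cd74 without parental replicate 1 (0.0630). Psmb10, an immunoproteasome subunit on chromosome 8, fell by 1.19. Without parental replicate 1 the list had 2 members higher, and 3 without parental replicate 2 or knockout replicate 1. Of 55 interferon response genes 2 rose, Ifih1 and Ifit3b, and 3 fell, Irf9, Ifi27 and Oasl1. All of these lie among the 50 members outside the stretches, where 5.30% of all genes rose and 4.62% fell. Oasl1 lost its call in each of the 4 cases of 1 library left out (adjusted p = 0.0523 to 0.144), and Ifit3b without knockout replicate 2 (0.0591).

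Promoter base composition was described for genes that fell outside the shifted stretches and for all genes that rose. The median ratio of observed to expected CpG was 0.568 in 549 windows of genes that fell there, 0.699 in 694 windows of all genes that rose, and 0.743 in 12747 windows of all tested genes. The antioxidant response core TGACNNNGC was held by 18.3% of the 415 matched genes that fell outside the stretches and 17.1% of all 9950, and the E-box CAGGTG by 25.3% and 20.8%. These shares are descriptions of the windows and were not tested.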
